A study of Homo sapiens with 12 samples.

Results

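Untreated KELLY and untreated SK-N-AS, human neuroblastoma (NB) cell lines, were compared across all genes, with the 6 DMSO samples of the 12 samples sequenced. KELLY is MYCN amplified and SK-N-AS is MYCN non-amplified. Both lines were grown in RPMI with 10% FBS and antibiotics, given the vehicle DMSO and harvested after 24 h, and each had 3 samples, labelled as replicates 1 to 3. The study itself asked what Erastin, an inhibitor of cystine import that causes ferroptosis, does to such cells. Its 6 Erastin samples (1 µM in KELLY and 2 µM in SK-N-AS, 24 h) were used here only to see whether a difference between the lines was also present in other libraries. Each line stands for 1 tumour, so that MYCN status and every other property of a line cannot be told apart, and p-values measure the spread between cultures of a line and not between tumours.

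NB arises from the sympathoadrenal branch of the neural crest. Its cells are known in an adrenergic state, held by factors such as HAND2 and GATA3 and marked by catecholamine enzymes, and in a mesenchymal state, marked by PRRX1, AP-1 and YAP factors, matrix and vimentin. Amplified MYCN drives growth, protein synthesis and metabolism and represses differentiation genes, and lines without it often express the related factor MYC. Ferroptosis is an iron-dependent death by lipid peroxidation, held back by cystine import, glutathione and the peroxidase GPX4, so that the level of these genes before treatment is of interest in NB cells.

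The deposited values were raw read counts per gene, with 24516853 to 28251514 counts per library in KELLY and 25696149 to 27244335 in SK-N-AS. Levels are given as CPM, counts scaled to the library's total after TMM correction, and differences as log2(KELLY/SK-N-AS) from edgeR's quasi-likelihood test, so that a positive value is higher in KELLY. A signed value alone in parentheses after a gene is its log2 difference, and values with ± are means with the SD over the 3 libraries of a line. A gene was called at a Benjamini-Hochberg adjusted p under 0.05 and a fold of at least 1.5. Of 17089 genes tested, 4819 (28.2%) were called higher in KELLY and 4750 (27.8%) higher in SK-N-AS, together 56.0%, and the median log2 difference of all genes was 0.02. At a fold of at least 4, 1984 (11.6%) were higher in KELLY and 1958 (11.5%) in SK-N-AS, together 23.1%. Across genes, Pearson's r between log2 CPM of libraries was 0.969 to 0.990 within KELLY, 0.989 to 0.993 within SK-N-AS and 0.709 to 0.729 between the lines.

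KELLY replicate 1 deviated most from its line's mean, with an SD of the deviation over genes of 0.456, against 0.370 and 0.247 in KELLY replicates 2 and 3. Spearman's correlation of a library's deviation from its line's mean with GC content, across 14772 genes, was -0.72, 0.73 and 0.32 in KELLY and 0.68, 0.17 and -0.70 in SK-N-AS, and the biological coefficient of variation was 0.249 in KELLY against 0.133 in SK-N-AS. Of the reads of the haemoglobin genes HBA2 and HBB in KELLY, 178 of 179 and 208 of 211 were in replicate 1. Counts for the gene lists below are therefore given with and without that library, without which 28.8% and 28.7% of 17692 genes were called higher in KELLY and SK-N-AS. Each of these counts is to be read beside the shares of all genes, 28.2% and 27.8% with all libraries. Members of the lists were chosen with earlier results of these data known, so that the counts describe the members and are no test.

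**Figure D1:**
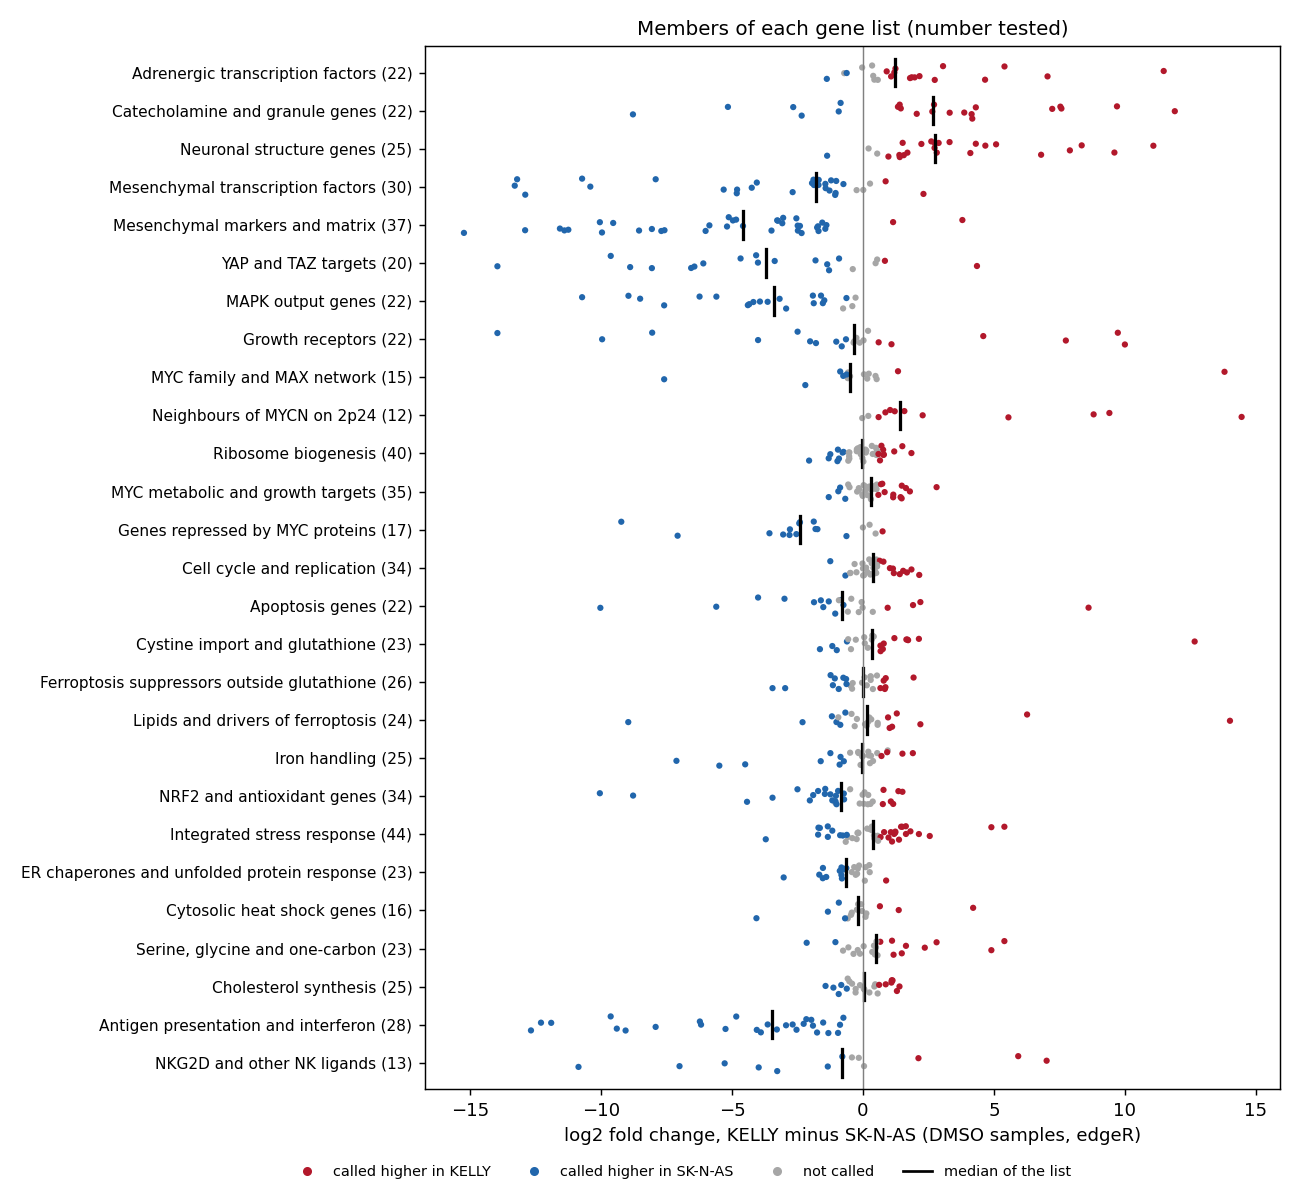
Each point is 1 tested gene of a list, placed by its log2 difference between untreated KELLY and untreated SK-N-AS (horizontal axis, edgeR, 3 samples per line), red where called higher in KELLY, blue where called higher in SK-N-AS and grey where not called, and a black bar marks the median of the list. The neuronal and catecholamine lists lie mostly to the right (medians 2.75 and 2.68), the mesenchymal, YAP, MAPK and antigen presentation lists mostly to the left (medians down to -4.58), and for genes without a read in 1 line the plotted value depends on the fit and is no bound.

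MYCN, the amplified oncogene at chr2:15940550-15947007 (GRCh38, plus strand), ranked first among the genes named below as the largest differences toward KELLY, by the difference of log2(mean CPM + 1). It had 130503, 140263 and 145326 counts in the 3 KELLY libraries and 11, 7 and 11 in the 3 SK-N-AS libraries, or 5103, 5712 and 5076 CPM against 0.402, 0.276 and 0.410 CPM. Every KELLY library was far above every SK-N-AS library (log2 difference 13.81, SE 0.21, edgeR adjusted p = 9.90e-09). MYC, its relative, went the other way, with 0.587, 0.814 and 0.768 CPM in KELLY and 146, 144 and 131 CPM in SK-N-AS (log2 difference -7.59, SE 0.20, edgeR adjusted p = 4.99e-08). Per kilobase of exon, the levels of the expressed factors were unequal, at 1923 ± 131 RPKM (SD, n = 3) for MYCN in KELLY and 23.0 ± 1.33 RPKM (SD, n = 3) for MYC in SK-N-AS. The lengths used, 2755 bases for MYCN and 6109 for MYC, join the annotated exons of all transcripts of a gene. They can exceed the length of the expressed transcript, so that the size of this gap is uncertain.

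Around MYCN, genes of 2p were mostly higher in KELLY as well. Leaving out MYCN itself, 5 of 5 tested genes with a start within 1 Mb of the MYCN start were called higher in KELLY, 9 of 10 within 2 Mb and 23 of 39 within 6 Mb, where HPCAL1 and MATN3 were higher in SK-N-AS. The shares of all genes were 28.2% toward KELLY and 27.8% toward SK-N-AS. The sizes of the differences around MYCN were uneven. DDX1, an RNA helicase often co-amplified with MYCN, had 478, 344 and 373 CPM in KELLY and 171, 188 and 223 CPM in SK-N-AS (log2 difference 1.04, SE 0.17, edgeR adjusted p = 0.000632), and NBAS, its neighbour, had 154, 124 and 129.8 and 73.0, 77.9 and 74.0 CPM (log2 difference 0.86, SE 0.14, edgeR adjusted p = 0.000584), with no overlap of the lines for either gene. GREB1, an estrogen-responsive gene on the DDX1 side of MYCN, had 195 CPM on average in KELLY against 4.14 CPM in SK-N-AS (log2 difference 5.56, SE 0.20, edgeR adjusted p = 1.53e-07). FAM84A, which lies between them, had 23.5 CPM on average in KELLY against 0.187 CPM (log2 difference 6.93, SE 0.31, edgeR adjusted p = 3.49e-07). Both stood apart by more than the nearer genes DDX1 and NBAS. A shift toward KELLY was also present farther along chromosome 2, among protein-coding genes with a mean of at least 100 counts. From 20 to 30 Mb, 35 of 66 were higher in KELLY and 3 in SK-N-AS (median log2 difference 0.68). From 30 to 40 Mb it was 15 and 5 of 36 (0.47), whereas from 80 to 90 Mb it was 2 and 25 of 30 (-1.24).

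Unlike DDX1 and NBAS, a few other transcripts near MYCN had no or almost no reads in SK-N-AS. MYCNOS, transcribed from the opposite strand of the same locus, had 93.1, 122 and 105 CPM in KELLY and no read in SK-N-AS, or at least 944-fold higher when SK-N-AS is set to 3 counts per library. The use of strand in the counting was not stated, and reads of MYCN and MYCNOS where they overlap cannot be told apart. The long non-coding RNA GACAT3 had 2.39, 2.28 and 1.71 CPM against no read (or at least 18.8-fold higher). FAM49A, a regulator of actin remodelling at 0.609 Mb, had 1604 reads in KELLY and 2 in SK-N-AS, a ratio of 809.9 (95% counting interval 224 to 6693). Of the 15 genes listed as neighbours of MYCN, 12 were tested, and 10 were higher in KELLY and 0 in SK-N-AS (9 and 0 without KELLY replicate 1), with a median log2 difference of 1.40. Copy number was not measured in these data, and its part in these differences was not tested.

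**Figure D2:**
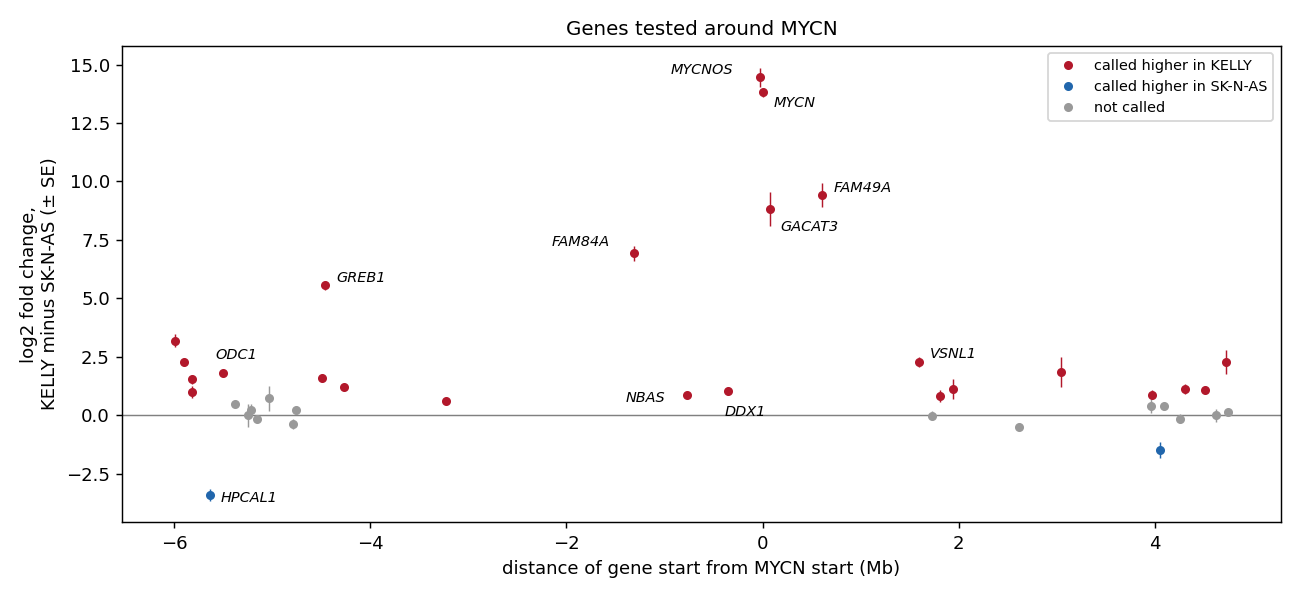
Tested genes within 6 Mb of MYCN, with the distance of the gene start from the MYCN start in Mb on the horizontal axis and the log2 difference between untreated KELLY and untreated SK-N-AS (± SE, edgeR, 3 samples per line) on the vertical axis. MYCN, MYCNOS, FAM49A and GACAT3 lie highest, NBAS and DDX1 close to MYCN lie at 0.86 and 1.04, and HPCAL1 is the lowest point at -3.41.

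Partners of MYCN and MYC in the MAX network differed by less than these factors. Of 15 tested members of the list, which holds MYCN and MYC, 2 (13.3%) were higher in KELLY and 5 (33.3%) in SK-N-AS (2 and 4 without KELLY replicate 1). The shares of all genes were 28.2% and 27.8%. MAX, the shared dimer partner, had 40.5 ± 2.10 CPM in KELLY and 60 ± 1.55 CPM in SK-N-AS (SD, n = 3), and its log2 difference of -0.57 was under the fold limit. The antagonist MXD4 was lower in KELLY, with 14.7, 36.7 and 24.3 CPM against 137, 119 and 91.4 CPM (log2 difference -2.20, SE 0.32, edgeR adjusted p = 0.000327), and the antagonist MNT was higher, with 21.9, 48.1 and 39.1 against 16.6, 14.8 and 11.7 CPM (log2 difference 1.34, SE 0.29, edgeR adjusted p = 0.00318). The libraries of the lines did not overlap for either. MYCL, the third family member, was low in both lines (0.692 ± 0.143 and 1.26 ± 0.240 CPM), and its call was lost with any of 5 of the 6 libraries left out, KELLY replicate 2 being the exception. AURKA, the kinase that stabilizes the MYCN protein, had 133 ± 3.05 and 118 ± 6.80 CPM and was not called.

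Genes that MYC proteins activate were split between the lines. Of 40 genes of ribosome biogenesis, 9 were higher in KELLY and 8 in SK-N-AS (11 and 8 without KELLY replicate 1), with a median log2 difference of -0.05 (0.15 without that library), beside 28.2% and 27.8% of all genes. GNL3, the nucleolar protein nucleostemin, had 227, 229.6 and 231 CPM in KELLY against 70.3, 85.6 and 86.4 CPM in SK-N-AS (log2 difference 1.51, SE 0.13, edgeR adjusted p = 1.62e-05). The U3 snoRNP protein gene RRP9 also did not overlap, at 65.4, 120.3 and 97.1 against 28.2, 28.6 and 21.5 CPM (log2 difference 1.85, SE 0.24, edgeR adjusted p = 0.000164). TCOF1 (-0.74), POLR1B (-0.95), GAR1 (-0.91) and NOB1 (-0.78), which serve rRNA transcription and processing, were higher in SK-N-AS, while MYBBP1A (1.20) was higher in KELLY, and the call of TCOF1 was lost without KELLY replicate 1 or 3 or without SK-N-AS replicate 1 or 2. In the SK-N-AS direction stood also LYAR, with 15.3, 11.9 and 15.5 CPM against 58.6, 55.0 and 63.9 CPM (log2 difference -2.06, SE 0.17, edgeR adjusted p = 9.38e-06), NIP7 (log2 difference -1.31) and EBNA1BP2 (-1.25). NCL, the nucleolin gene, had 1067, 1122 and 1068 CPM in KELLY and 832, 836 and 902 CPM in SK-N-AS, a log2 difference of 0.34 that was under the fold limit although the libraries did not overlap. NPM1, another abundant nucleolar protein gene, was higher in KELLY (1663 ± 173 against 954 ± 119 CPM, SD, n = 3, log2 difference 0.80).

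Of 35 tested metabolic and growth targets, 12 (34.3%) were higher in KELLY and 4 (11.4%) in SK-N-AS (15 and 4 without KELLY replicate 1). All genes had shares of 28.2% and 27.8%, and the median log2 difference of these targets was 0.31. ODC1, the rate-limiting enzyme of polyamine synthesis and also a gene of 2p, had 852, 839.7 and 831 CPM in KELLY against 229, 257 and 242 CPM in SK-N-AS (log2 difference 1.79, SE 0.11, edgeR adjusted p = 2.04e-06). The mitochondrial folate enzymes MTHFD1L and MTHFD2 were higher in KELLY by log2 differences of 2.81 and 1.64, and so were the glucose transporter SLC2A1 (1.44) and the telomerase subunit TERT (0.74). The 4 genes higher in SK-N-AS were the glycolytic genes PKM (831, 1317 and 1071 against 2886, 2775 and 2295 CPM, log2 difference -1.31, SE 0.18, edgeR adjusted p = 0.000255) and LDHA (681, 505 and 530.3 against 929, 1083 and 1128 CPM, log2 difference -0.87, SE 0.15, edgeR adjusted p = 0.000978), the cyclin-dependent kinase CDK4 (-0.94) and the purine enzyme GART (-0.67). The nucleotide genes CAD, ATIC and TYMS were not called, at log2 differences between -0.01 and 0.53.

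MYC proteins bind the E-box letters CACGTG, and 3 promoters are shown with these letters in capitals, 1 from each outcome, namely higher in KELLY, not called and higher in SK-N-AS. They are from the RefSeq promoter table of GRCh38.p14, written 5′ to 3′ on the strand of the gene: SLC7A5, the leucine transporter, a gene of the integrated stress response list (chr16:87869587-87869682, minus strand), SRM, spermidine synthase (chr1:11060167-11060262, minus strand), and LDHA (chr11:18394333-18394526, plus strand).
SLC7A5: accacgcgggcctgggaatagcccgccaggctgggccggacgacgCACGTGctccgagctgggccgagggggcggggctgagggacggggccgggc
SRM: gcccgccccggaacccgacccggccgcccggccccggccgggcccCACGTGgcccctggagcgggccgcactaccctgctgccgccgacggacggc
LDHA: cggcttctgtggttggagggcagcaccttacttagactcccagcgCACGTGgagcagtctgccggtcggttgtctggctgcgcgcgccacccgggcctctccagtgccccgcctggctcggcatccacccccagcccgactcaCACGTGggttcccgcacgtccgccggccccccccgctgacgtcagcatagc
The last match ended 124 bases before the start of SLC7A5, 193 before that of SRM and 81 before that of LDHA. SLC7A5 had 247, 427 and 374 CPM in KELLY against 119, 97.3 and 82.4 CPM in SK-N-AS (log2 difference 1.81, SE 0.23, edgeR adjusted p = 0.000138), and SRM had 195, 312 and 286 against 319, 310.5 and 294 CPM, with overlap. CACGTG, which reads the same on both strands, was in the 250 bases before the start of 6.49% of 27305 promoters. It was there in 11 (36.7%) of the 30 metabolic and growth targets with a promoter in the table, of which 3 were higher in KELLY, 2 in SK-N-AS and 6 not called. Of the 19 without it, 9 were higher in KELLY, 2 in SK-N-AS and 8 not called. A match is a description of the letters and not of binding.

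Genes that MYC proteins repress were mostly higher in SK-N-AS. Of 17 tested, 1 was higher in KELLY and 13 in SK-N-AS (2 and 13 without KELLY replicate 1), with a median log2 difference of -2.40. THBS1, a matrix protein that inhibits angiogenesis, had 0.704, 0.489 and 0.489 CPM in KELLY against 341, 328 and 346 CPM in SK-N-AS (log2 difference -9.23, SE 0.20, edgeR adjusted p = 4.96e-08). TGM2, tissue transglutaminase, had 0.938, 1.55 and 0.664 against 155, 151 and 116 CPM (log2 difference -7.08, SE 0.31, edgeR adjusted p = 3.02e-07), and NDRG1 and CDKN2B log2 differences of -2.79 and -3.57. The cell cycle inhibitor CDKN1A, a classic repressed gene, had 22.2, 38.9 and 31.5 and 23.7, 23.2 and 19.4 CPM and overlapped, and TXNIP, which limits glucose uptake, was the member higher in KELLY (80.9 ± 5.50 against 48.1 ± 4.09 CPM, SD, n = 3, log2 difference 0.75). SPARC, TGFBI and ITGB1 of this list are also among the mesenchymal markers described below.

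Most factors of the adrenergic state were higher in KELLY, and of the 22 listed 1 had no read in SK-N-AS. Of 22 tested, 14 were higher in KELLY and 2 in SK-N-AS (15 and 2 without KELLY replicate 1), with a median log2 difference of 1.22. HAND2, a factor of sympathetic identity, had 579, 736 and 691 CPM in KELLY and 517, 499 and 467 CPM in SK-N-AS (log2 difference 0.44, SE 0.13, edgeR adjusted p = 0.0168). The KELLY libraries were above the SK-N-AS libraries without overlap, but by less than the fold limit. PHOX2A was higher in KELLY at 320.4, 507 and 441 against 99.5, 92.4 and 91.7 CPM (log2 difference 2.16, SE 0.18, edgeR adjusted p = 1.11e-05), as were GATA3 (log2 difference 1.08), GATA2 (1.86), ISL1 (1.8) and TFAP2B (1.98), further factors of the adrenergic core circuit.

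HAND1, the relative of HAND2, had 285, 447 and 384 CPM in KELLY against 3.33, 2.84 and 2.24 CPM in SK-N-AS (log2 difference 7.05, SE 0.26, edgeR adjusted p = 1.54e-07). The NB susceptibility gene LMO1 had a log2 difference of 5.41. ZNF536, a neuronal zinc finger factor, had 11.8, 14.6 and 14.4 CPM in KELLY and no read in SK-N-AS, or at least 120.0-fold higher. The members higher in SK-N-AS were DACH1 (25.4 ± 6.25 against 66.0 ± 9.35 CPM, SD, n = 3, log2 difference -1.38) and the Notch target HEY1 (-0.62, a call lost without KELLY replicate 3 or SK-N-AS replicate 2).

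TH, DBH and DDC, enzymes of catecholamine synthesis, were higher in KELLY. TH, the rate-limiting enzyme, had 268, 584 and 403 CPM in KELLY against 3.29, 3.23 and 1.83 CPM in SK-N-AS (log2 difference 7.23, SE 0.39, edgeR adjusted p = 8.14e-07). DBH, which makes noradrenaline, had 594, 1218 and 945 against 5.88, 4.69 and 3.80 CPM (log2 difference 7.58, SE 0.34, edgeR adjusted p = 3.49e-07). DDC, which makes dopamine, was expressed in both lines, at 287, 381 and 329.6 against 81.9, 80.5 and 77.8 CPM (log2 difference 2.06, SE 0.14, edgeR adjusted p = 3.76e-06). Vesicle and uptake genes followed, with SLC18A2, the vesicular monoamine transporter, at 119 ± 10.6 against 0.139 ± 0.0884 CPM (SD, n = 3, log2 difference 9.70), and SLC6A2, the noradrenaline transporter, at 90.2 ± 8.26 against 13.7 ± 1.5 CPM (2.72).

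CHGA, the chromogranin A of dense-core granules, had 1878, 3273 and 2441 CPM in KELLY against 15.0, 12.5 and 13.3 CPM in SK-N-AS (log2 difference 7.54, SE 0.26, edgeR adjusted p = 1.29e-07), and the peptide gene CARTPT had 17.1, 20 and 17.6 CPM against no read, or at least 161-fold higher. VIP, a neuropeptide of sympathetic and NB cells, was the reverse, at 2.35, 1.18 and 2.10 against 677, 829 and 986 CPM (log2 difference -8.78, SE 0.31, edgeR adjusted p = 1.36e-07), and so was the granin SCG2 at 18.6, 19.0 and 19.7 against 632, 708 and 703 CPM (log2 difference -5.15, SE 0.14, edgeR adjusted p = 4.99e-08). No library overlapped between the lines for any of these 4 genes. NPY, a cotransmitter, was low in both lines but higher in SK-N-AS (log2 difference -2.34), as were SYT4 (-2.66) and SYT1 (-0.85), calcium sensors of exocytosis, and GCH1 (-0.92), which supplies the cofactor of TH. Of 25 genes on the catecholamine and granule list, 22 were tested, 16 were higher in KELLY and 6 in SK-N-AS (17 and 6 without KELLY replicate 1), and the median log2 difference was 2.68.

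Neuronal structure genes were almost uniformly higher in KELLY. Of 25 tested, 22 were higher in KELLY and 1 in SK-N-AS (23 and 1 without KELLY replicate 1), with a median log2 difference of 2.75 against 0.02 for all genes. DCX, doublecortin of migrating neurons, had 63.0, 53 and 61.6 CPM in KELLY against 0.0731, 0.158 and 0.298 CPM in SK-N-AS (log2 difference 8.36, SE 0.32, edgeR adjusted p = 1.74e-07). The neurofilament genes NEFL, NEFM and NEFH had log2 differences of 2.23, 4.10 and 6.81, and the growth cone genes GAP43 and STMN2 of 4.68 and 3.31. STMN4 was not read in SK-N-AS (8.76, 12.2 and 10.1 CPM in KELLY, or at least 91.3-fold higher), and CNTN2 had 2604 reads in KELLY against 3 in SK-N-AS, a ratio of 877 (95% counting interval 299.6 to 4253). DPYSL3, a collapsin response mediator, was the exception, at 174, 185 and 181 against 456, 474 and 461 CPM (log2 difference -1.37, SE 0.11, edgeR adjusted p = 9.93e-06), while its relative DPYSL5 was among the 10 genes with the largest differences toward KELLY.

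**Figure D3:**
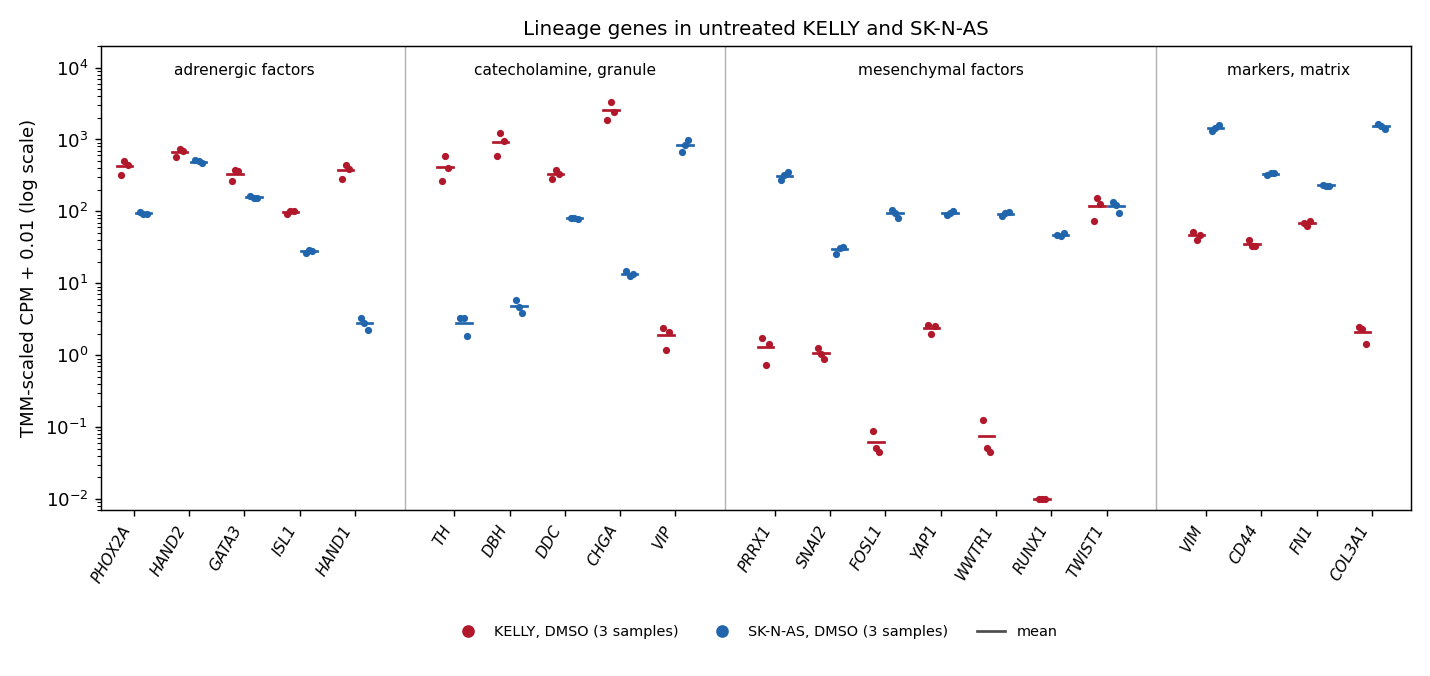
TMM-scaled CPM (log axis, with 0.01 added so that 0 can be drawn) of lineage genes in the 3 untreated KELLY samples (red points) and the 3 untreated SK-N-AS samples (blue points), with bars at the means. HAND2 lies close in the lines, TH, DBH and CHGA lie far higher in KELLY, VIP and the mesenchymal factors and markers lie higher in SK-N-AS, and TWIST1 overlaps.

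Mesenchymal transcription factors were higher in SK-N-AS. Of 30 tested, 2 were higher in KELLY and 25 in SK-N-AS (2 and 24 without KELLY replicate 1), with a median log2 difference of -1.78. PRRX1, a homeobox factor that can impose the mesenchymal state on NB cells, had 1.72, 0.733 and 1.43 CPM in KELLY against 277, 316 and 353 CPM in SK-N-AS (log2 difference -7.91, SE 0.30, edgeR adjusted p = 1.66e-07). The AP-1 member FOSL1 was at 0.0782, 0.0407 and 0.0349 against 106, 95 and 81.1 CPM (log2 difference -10.72, SE 0.29, edgeR adjusted p = 5.05e-08), and SNAI2, a factor of epithelial to mesenchymal transition, at 1.25, 1.02 and 0.873 against 25.8, 30.7 and 32.3 CPM (log2 difference -4.82, SE 0.22, edgeR adjusted p = 3.49e-07). For each, the lines stood apart, and KELLY had 103 reads of PRRX1, 4 of FOSL1 and 82 of SNAI2 over its 3 libraries, so that FOSL1 was near the lower end of detection.

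RUNX1, RUNX2 and TWIST2 had no read in KELLY. RUNX1, a factor of blood and mesenchymal development, had 46.8, 45.4 and 50.8 CPM in SK-N-AS, or at least 415-fold higher, and RUNX2, the bone master factor, had 43.9, 40.2 and 50.2 CPM, or at least 390.0-fold higher. TWIST2 had 38.3, 36.3 and 33.7 CPM, or at least 314-fold higher. Its relative TWIST1 did not follow, with 74.0, 156 and 126 CPM in KELLY and 135, 122 and 94.6 CPM in SK-N-AS, which overlapped, and ZEB1 (123 ± 32.3 against 67.3 ± 7.20 CPM, SD, n = 3, log2 difference 0.87) and SIX4 (2.31) were higher in KELLY. ZEB2, the relative of ZEB1, was higher in SK-N-AS (-1.69). Of the Notch receptors, NOTCH3 was higher in SK-N-AS (-1.42), and NOTCH2 was at 1.09 ± 0.236 and 0.908 ± 0.160 CPM and not called, a gene whose reads near-identical copies can take. MEOX1 and MEOX2 had 0 counts in all 6 libraries, which allows up to 3 counts per library.

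Mesenchymal markers and matrix genes were higher in SK-N-AS with few exceptions. Of 37 tested, 2 were higher in KELLY and 35 in SK-N-AS (2 and 35 without KELLY replicate 1), and the median log2 difference was -4.58, or -3.49 with the genes at 0 in KELLY set to their bounds. VIM, the intermediate filament of mesenchymal cells, had 50.9, 40.6 and 47.2 CPM in KELLY against 1327, 1436 and 1569 CPM in SK-N-AS (log2 difference -4.96, SE 0.15, edgeR adjusted p = 8.83e-08), and CD44, a hyaluronan receptor, had 39.7, 32.6 and 33.4 against 321, 338 and 342 CPM (log2 difference -3.24, SE 0.14, edgeR adjusted p = 2.87e-07). FN1, fibronectin, differed less, at 68.5, 63.0 and 73.5 against 237, 223 and 229 CPM (log2 difference -1.75, SE 0.13, edgeR adjusted p = 4.59e-06). Fibrillar collagen COL3A1 was at 2.46, 2.32 and 1.43 against 1659.9, 1524 and 1421 CPM (log2 difference -9.54, SE 0.25, edgeR adjusted p = 4.99e-08) and COL1A1 at a log2 difference of -7.58, while COL1A2, which pairs with COL1A1 in type I collagen, had 0 reads in KELLY and 7 in SK-N-AS over 3 libraries each and was not tested.

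Several calcium- and membrane-binding proteins were almost absent from KELLY. S100A6 had no read in KELLY and 183, 205 and 160.3 CPM in SK-N-AS, or at least 1594-fold higher, and S100A10 had 1 read in KELLY against 10582, a ratio of 10479 (95% counting interval 1880.3 to 413933). ANXA1, an annexin that limits inflammation, had 0.156, 0.122 and 0.0349 against 285, 336 and 352 CPM (log2 difference -11.57, SE 0.30, edgeR adjusted p = 4.99e-08), and the proteoglycan LUM had 0.508, 0.489 and 0.559 against 439, 535 and 599 CPM (log2 difference -9.96, SE 0.22, edgeR adjusted p = 4.96e-08). Of the caveolar genes, CAVIN1 had a mean of 0.0518 CPM in KELLY against 150.1 CPM, and CAV1 had no read in KELLY and 78 reads in SK-N-AS. The members higher in KELLY were the smooth muscle gene CNN1 (log2 difference 3.80) and the collagen cross-linker LOX (9.85 ± 4.70 against 4.43 ± 0.101 CPM, SD, n = 3, 1.15).

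Transcripts of genes listed as Hippo and MAPK output mostly went in the same direction. YAP1, a co-activator of the Hippo pathway, had 2.62, 2.00 and 2.51 CPM in KELLY against 89.3, 94.9 and 101 CPM in SK-N-AS (log2 difference -5.32, SE 0.18, edgeR adjusted p = 1.29e-07). WWTR1 (TAZ), its relative, had 0.117, 0.0407 and 0.0349 against 85.0, 95.8 and 97.9 CPM (log2 difference -10.41, SE 0.29, edgeR adjusted p = 5.46e-08). Of 20 tested targets, 2 were higher in KELLY and 15 in SK-N-AS (3 and 16 without KELLY replicate 1), with a median log2 difference of -3.69, or -1.58 among targets with at least 10 counts in every sample, which leaves out those silent in 1 line. CYR61 (CCN1), a secreted matrix protein and classic target, had 0.469, 1.18 and 0.664 against 54.4, 53.8 and 49.8 CPM (log2 difference -6.09, SE 0.30, edgeR adjusted p = 4.85e-07), and AXL, a receptor tyrosine kinase, had no read in KELLY and 81.7, 79.1 and 65.4 CPM in SK-N-AS, or at least 657-fold higher. CTGF (CCN2), the other classic target, was nearly silent in both lines, with 2 and 47 reads over 3 libraries each, and was not tested. CRIM1 (-8.89) and MYOF (-9.63) were among the targets higher in SK-N-AS, and TGFB2 (4.36) and AMOTL1 (0.84) were higher in KELLY.

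Of 22 tested genes that report MAPK signalling, 0 were higher in KELLY and 19 in SK-N-AS (0 and 19 without KELLY replicate 1), with a median log2 difference of -3.41. DUSP6, a phosphatase that ERK induces against itself, had 8.88, 8.92 and 9.12 CPM in KELLY against 125, 141 and 146 CPM in SK-N-AS (log2 difference -3.93, SE 0.15, edgeR adjusted p = 1.60e-07), and SPRY2, a feedback inhibitor of receptor kinases, 23.0, 23.9 and 28.7 against 319, 318 and 305 CPM (log2 difference -3.64, SE 0.15, edgeR adjusted p = 2.13e-07). The early gene IER3 (-8.95), the membrane protein EMP1 (-8.51) and the ETS factor ETV4 (-4.34) went with them, and the ETS factor ETV5, at 52.6 ± 1.04 and 63.9 ± 0.234 CPM (SD, n = 3), was not called. FOSL1 and MYC stand in this list too. The activity of YAP, TAZ and ERK was not measured in these libraries.

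Of 22 tested growth factor receptors, 6 (27.3%) were higher in KELLY and 10 (45.5%) in SK-N-AS (5 and 9 without KELLY replicate 1), beside 28.2% and 27.8% of all genes. ALK, a receptor kinase that is mutated in part of NB tumours, had 64.9, 95.5 and 86.6 CPM in KELLY against 0.0365, 0.0394 and 0.149 CPM in SK-N-AS (log2 difference 10.00, SE 0.37, edgeR adjusted p = 1.56e-07). FGFR2 had 2843 reads in KELLY against 3, a ratio of 957 (95% counting interval 327 to 4643), and MET, the receptor of hepatocyte growth factor, had 50.6, 31.8 and 34.0 against 1.61, 1.85 and 1.34 CPM (log2 difference 4.6, SE 0.26, edgeR adjusted p = 1.09e-06). In SK-N-AS the higher receptors were EGFR, at 53.6, 49.3 and 55.9 against 311, 289 and 295 CPM (log2 difference -2.49, SE 0.13, edgeR adjusted p = 5.96e-07), PDGFRA at 0.117, 1.06 and 0.838 against 164, 177 and 196 CPM (log2 difference -8.05, SE 0.47, edgeR adjusted p = 1.23e-06), and FGFR1 (-1.79). EPHB6, a kinase-dead ephrin receptor, had 1 read in KELLY against 1383 in SK-N-AS, a ratio of 1369.5 (95% counting interval 245 to 54132). RET, the GDNF receptor, had 214 ± 10.1 and 274 ± 18.1 CPM and was under the fold limit (-0.36), and its co-receptors GFRA2 (1.09) and GFRA3 (291 reads against 1, a ratio of 294 (95% counting interval 52.3 to 11646)) were higher in KELLY. DDR2, a collagen receptor, was higher in KELLY (0.60) by a call that was lost without KELLY replicate 1 or without SK-N-AS replicate 1 or 2.

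Markers of other cell types were checked in both lines. Of 15 blood cell markers, haemoglobin genes included, 8 had no read in KELLY and 8 none in SK-N-AS, and PTPRC (CD45), the phosphatase of white blood cells, was the member with enough reads to be tested. It had no read in KELLY and 484, 531 and 615 CPM in SK-N-AS, or at least 4734-fold higher, while CD3D, CD3E, MS4A1, LYZ and ITGAM together had no more than 1 read in SK-N-AS and CD14 and CSF1R had 30 and 32 reads. The summed level of the list was 0.285 to 15.5 CPM in KELLY, where the haemoglobin reads of replicate 1 make the upper end, and 485 to 616 CPM in SK-N-AS, nearly all of it PTPRC.

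The other marker lists were low apart from simple keratins. KRT18 had 0, 0.163 and 0.0349 CPM in KELLY against 181, 158 and 128 CPM in SK-N-AS (log2 difference -11.15, SE 0.44, edgeR adjusted p = 1.79e-07), and KRT8, its partner, 0, 0.244 and 0 against 91.4, 83.7 and 60 CPM (log2 difference -9.91, SE 0.58, edgeR adjusted p = 1.33e-06), with EPCAM, CDH1, KRT5, KRT14 and KRT20 at 0 to 21 reads per line. KRT19 was higher in KELLY (2.89). Of the melanocyte markers, TYR had no read in either line and DCT had 1 and 4 reads, whereas TYRP1, a melanin enzyme outside the list, was among the 10 genes with the largest differences toward SK-N-AS at 0.156, 0 and 0.14 against 507, 588 and 631 CPM (log2 difference -12.40, SE 0.38, edgeR adjusted p = 8.74e-08). Summed over 13 epithelial and melanocyte markers, the level was 13.1 to 15.0 CPM in KELLY and 199 to 284 CPM in SK-N-AS, mostly KRT8 and KRT18. Of 10 Schwann cell and glial markers, 6 were tested, 1 was higher in each line, and SOX10, the defining factor, had 4 reads in KELLY against 2 in SK-N-AS, and the list had summed levels of 32.6 to 38.2 and 38.4 to 43.2 CPM. Of the defining genes of NB cells, PHOX2A, HAND2 and GATA3 were expressed in all 6 libraries, and TH, DBH and CHGA were low in SK-N-AS.

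The genes that load peptides onto MHC class I, and those that interferon induces, were higher in SK-N-AS. Of 28 tested, 0 were higher in KELLY and 28 in SK-N-AS (0 and 27 without KELLY replicate 1), beside 28.2% and 27.8% of all genes, and the median log2 difference was -3.46, or -3.30 with genes at 0 set to their bounds. B2M, the light chain of class I, was expressed in both lines, at 140.2, 117 and 117 CPM in KELLY against 425, 515 and 529 CPM in SK-N-AS (log2 difference -1.97, SE 0.15, edgeR adjusted p = 5.22e-06). HLA-B, a heavy chain, was near the lower end of detection in KELLY, at 0.0391, 0.407 and 0.0699 against 14.3, 13.1 and 9.81 CPM (log2 difference -6.18, SE 0.51, edgeR adjusted p = 1.07e-05), and HLA-C had a log2 difference of -2.26. The HLA genes are so alike that reads can be dropped or split between them, and their levels are uncertain.

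A peptide transporter subunit and the immunoproteasome had no read in KELLY. TAP1 had 27.7, 23.2 and 20.5 CPM in SK-N-AS, or at least 207-fold higher, PSMB8 had 32.3, 34.2 and 26.6 CPM, or at least 270.3-fold higher, and PSMB9 had 17.5, 20.1 and 16.9 CPM, or at least 158-fold higher. TAP2 had 1.02, 0.529 and 0.559 against 19.5, 21.2 and 19.7 CPM (log2 difference -4.84, SE 0.27, edgeR adjusted p = 9.53e-07) and TAPBP, which joins TAP to class I, 8.45, 14.7 and 12.7 against 126, 114 and 110.1 CPM (log2 difference -3.29, SE 0.22, edgeR adjusted p = 2.90e-06). NLRC5, the class I transactivator (-2.94), and IRF1 (-2.68), factors that induce these genes, were higher in SK-N-AS as well. The DNA sensor STING1 (TMEM173) had 3.11, 3.98 and 2.50 CPM in SK-N-AS and no read in KELLY (or at least 27.9-fold higher), and the RNA sensor IFIH1 2 reads in KELLY against 1279, a ratio of 633 (95% counting interval 175 to 5235).

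Interferon response elements repeat GAAA, and promoters of 3 of these genes are shown with GAAA, any 2 bases and GAAA again, or the same read on the other strand, in capitals, overlapping matches included. They are from RefSeq, GRCh38.p14, 5′ to 3′ on the strand of the gene: TAP1 (chr6:32853817-32853883, minus strand), IFIT3 (chr10:89327796-89327929, plus strand) and ISG15 (chr1:1013339-1013444, plus strand).
TAP1: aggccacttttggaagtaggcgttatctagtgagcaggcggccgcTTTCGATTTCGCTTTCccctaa
IFIT3: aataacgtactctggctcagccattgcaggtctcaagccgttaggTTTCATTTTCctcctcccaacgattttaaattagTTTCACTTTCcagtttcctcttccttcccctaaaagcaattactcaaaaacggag
ISG15: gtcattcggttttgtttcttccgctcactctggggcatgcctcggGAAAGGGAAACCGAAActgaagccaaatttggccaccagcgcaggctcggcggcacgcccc
IFIT3, an antiviral gene, had 0.156, 0.0814 and 0.105 CPM in KELLY against 8.70, 9.27 and 8.76 CPM in SK-N-AS (log2 difference -6.23, SE 0.29, edgeR adjusted p = 3.96e-07), and ISG15, a ubiquitin-like modifier, 0.196, 0.367 and 0.105 against 9.72, 9.39 and 6.19 CPM (log2 difference -5.25, SE 0.40, edgeR adjusted p = 6.01e-06). The letters, searched on both strands in the 250 bases before the start, were in 3.07% of 27305 promoters and in 10 (47.6%) of the 21 genes of this list with a promoter in the table. All 10 with the letters and all 11 without them were higher in SK-N-AS. The starts of TAP1 and PSMB9 lie 488 bases apart, so that these genes share one promoter region.

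Ligands of natural killer cell receptors did not share one direction. ULBP1, a ligand of the activating receptor NKG2D, had 4.50, 3.34 and 3.77 CPM in KELLY and 0, 0.0789 and 0 CPM in SK-N-AS, or 305 against 2 reads, a ratio of 154 (95% counting interval 42.3 to 1277). ULBP2 followed with 203 against 3 reads, a ratio of 68.3 (95% counting interval 23.1 to 334), and ULBP3 with a log2 difference of 2.12. The stress ligands MICA and MICB were the reverse but low, with 4 reads in KELLY against 70 for MICA (-3.98) and none against 48 for MICB (or at least 5.26-fold higher). NECTIN2, bound by DNAM-1, had 7.43, 14.1 and 11.0 against 122, 112 and 80.8 CPM (log2 difference -3.27, SE 0.27, edgeR adjusted p = 1.00e-05), the adhesion molecule ICAM1 had no read in KELLY and 9.14, 9.51 and 7.79 CPM in SK-N-AS (or at least 76.8-fold higher), and CD274 (PD-L1) was at 0.821, 0.0814 and 0.14 against 11.4, 12.9 and 16.4 CPM (log2 difference -5.28, SE 0.56, edgeR adjusted p = 5.00e-05). In all, 3 of 13 tested were higher in KELLY and 7 in SK-N-AS (3 and 7 without KELLY replicate 1), and CD276 and CD47 were not called.

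**Figure D4:**
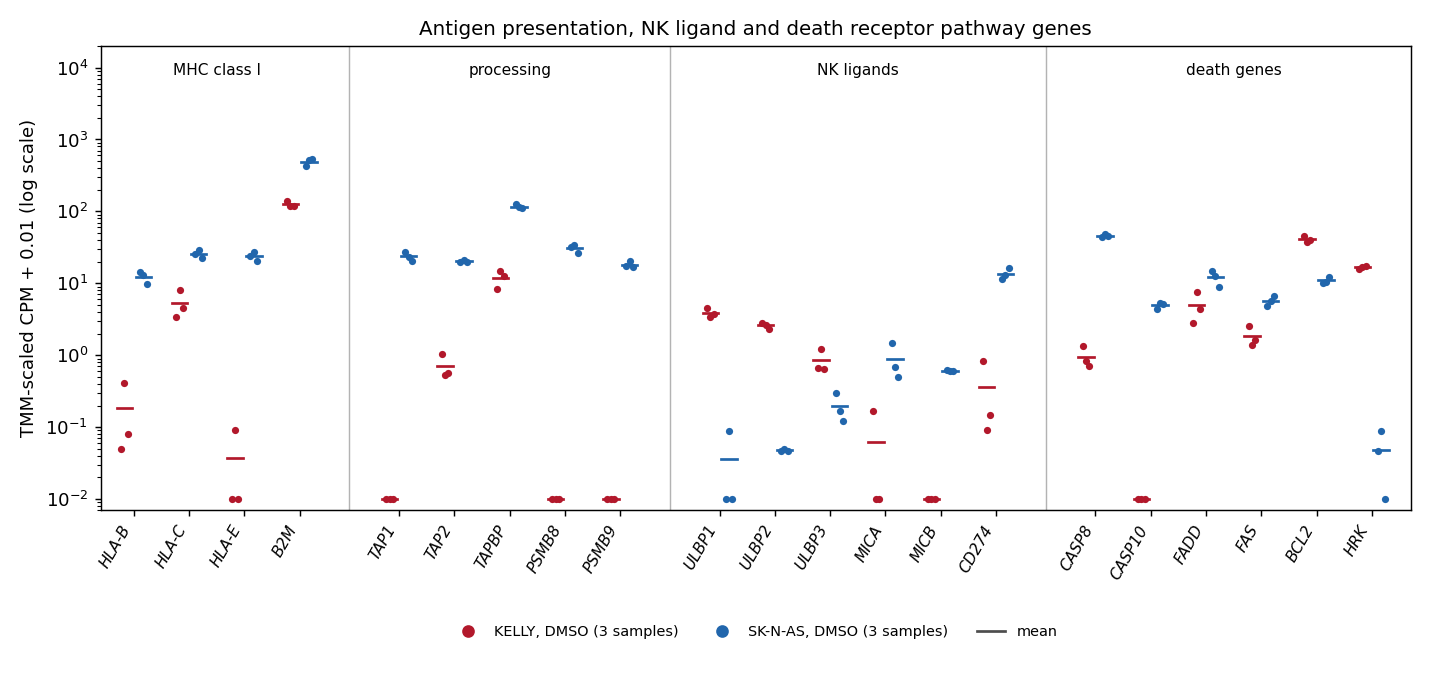
TMM-scaled CPM (log axis, with 0.01 added so that 0 can be drawn) of antigen presentation, NK ligand and cell death genes in the 3 untreated KELLY samples (red) and the 3 untreated SK-N-AS samples (blue), with bars at the means. TAP1, PSMB8, PSMB9 and CASP10 lie at 0 in KELLY, ULBP1 to ULBP3, BCL2 and HRK lie higher in KELLY, and the lines do not overlap for any gene shown.

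Of 22 tested apoptosis genes, 4 were higher in KELLY and 11 in SK-N-AS (4 and 12 without KELLY replicate 1). CASP8, the initiator caspase that is often silenced in MYCN-amplified NB, had 1.33, 0.814 and 0.699 CPM in KELLY against 44.2, 48.8 and 45.1 CPM in SK-N-AS (log2 difference -5.60, SE 0.25, edgeR adjusted p = 3.52e-07). CASP10, its relative, had no read in KELLY and 4.42, 5.32 and 5.07 CPM in SK-N-AS, or at least 43.0-fold higher, and CFLAR, the inhibitor of both, was at 6.61, 8.39 and 6.67 against 55.3, 57.7 and 59.8 CPM (log2 difference -3.0, SE 0.17, edgeR adjusted p = 9.83e-07). The adaptor FADD (-1.30) and the receptors FAS (-1.61) and TNFRSF1A (-1.87) were higher in SK-N-AS as well. Of the death receptors that bind TRAIL, TNFRSF10A was low but higher in SK-N-AS, with 54 reads against 3 in KELLY, a ratio of 17.8 (95% counting interval 5.78 to 89.1), and TNFRSF10B was not called (-0.57), and their ligand TNFSF10 had too few reads to be tested. Among the members higher in KELLY were genes of the mitochondrial arm, namely BCL2 (46.1, 37.1 and 40.5 against 10.2, 10.4 and 12.2 CPM, log2 difference 1.91, SE 0.17, edgeR adjusted p = 1.36e-05), BID (0.95) and HRK, which had 1316 reads against 3, a ratio of 443 (95% counting interval 151 to 2151).

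Of 34 tested cell cycle and replication genes, 10 (29.4%) were higher in KELLY and 2 (5.88%) in SK-N-AS (10 and 2 without KELLY replicate 1), beside 28.2% and 27.8% of all genes, with a median log2 difference of 0.40. MKI67, the proliferation marker, had 469, 531 and 589 CPM in KELLY and 473, 402 and 429 CPM in SK-N-AS and overlapped. The helicase subunits MCM2, MCM3 and MCM5 had log2 differences of 1.41, 1.18 and 1.15, GINS2 of 2.15, CDC45 of 1.03 and the licensing factors CDT1 and CDC6 of 1.68 and 0.64, while MCM4, MCM6, MCM7 and GINS1 were not called, at 0.54, -0.02, -0.48 and 0.34. The mitotic kinase AURKB was higher in KELLY (1.85). BUB1, a checkpoint kinase (-1.25), and RRM1 (-0.67) were higher in SK-N-AS, although RRM2, the other ribonucleotide reductase subunit and a gene of 2p, was higher in KELLY (426 ± 108 against 147 ± 15.9 CPM, SD, n = 3, 1.54).

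The system Xc subunits, which Erastin targets, went in opposite directions. SLC7A11, the cystine/glutamate exchanger, had 32.0, 17.0 and 21.9 CPM in KELLY against 47.9, 52.7 and 58.8 CPM in SK-N-AS (log2 difference -1.17, SE 0.23, edgeR adjusted p = 0.00222), and all KELLY libraries were lower. SLC3A2, its heavy chain and that of other transporters, had 110.3, 143 and 112 against 88.0, 80.9 and 59.6 CPM (log2 difference 0.67, SE 0.18, edgeR adjusted p = 0.0115), and all KELLY libraries were higher, by a call that was lost without KELLY replicate 2 or SK-N-AS replicate 3. GPX4, the peroxidase that repairs lipid peroxides, was lower in KELLY, at 65.2, 92.4 and 85.4 against 168, 175 and 143 CPM (log2 difference -1.0, SE 0.17, edgeR adjusted p = 0.000795).

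CBS, the first step of transsulfuration, had 55.8, 64.5 and 50.6 CPM in KELLY against 30.6, 31.7 and 36.2 CPM in SK-N-AS (log2 difference 0.80, SE 0.15, edgeR adjusted p = 0.00188), and GCLC, the catalytic subunit of glutamate-cysteine ligase, 70.8, 49.4 and 62.5 against 36.1, 35.5 and 36.2 CPM (log2 difference 0.76, SE 0.16, edgeR adjusted p = 0.00333). The modifier GCLM, the synthase GSS and the reductase GSR were not called, at log2 differences of 0.19, 0.07 and -0.27. CHAC1, which degrades glutathione and is induced in ferroptosis, was low but higher in KELLY (4.16 ± 0.526 against 0.939 ± 0.203 CPM, SD, n = 3, log2 difference 2.14).

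MGST1, a microsomal transferase that reduces lipid peroxides, had 38.4, 24.4 and 29.8 CPM in KELLY and no read in SK-N-AS, or at least 272-fold higher. GSTP1 had 234, 552 and 409.5 against 135, 133 and 110.3 CPM (log2 difference 1.66, SE 0.28, edgeR adjusted p = 0.000831) and GSTM3 a log2 difference of 1.70, while MGST3 was not called (-0.46). GGT1, which splits extracellular glutathione, was low and higher in KELLY (1.73). GPX7, a peroxidase of the endoplasmic reticulum, was higher in SK-N-AS (-1.64), and so was CHAC2 (-0.61), although its libraries overlapped and its call was lost without KELLY replicate 2 or 3, without SK-N-AS replicate 2 or 3, with a replicate block and with protein-coding genes alone. Of 23 tested members of the cystine and glutathione list, 10 were higher in KELLY and 4 in SK-N-AS (10 and 4 without KELLY replicate 1), with a median log2 difference of 0.36.

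Of 26 tested ferroptosis suppressors outside glutathione, 6 (23.1%) were higher in KELLY and 9 (34.6%) in SK-N-AS (6 and 8 without KELLY replicate 1), beside 28.2% and 27.8% of all genes, with a median log2 difference of 0.01. NQO1, a quinone reductase, had 21.6, 25.7 and 23.4 CPM in KELLY against 247, 269.6 and 258 CPM in SK-N-AS (log2 difference -3.45, SE 0.14, edgeR adjusted p = 2.14e-07), and PRDX6, a peroxiredoxin that reduces phospholipid peroxides, 205, 182 and 183 against 421, 464 and 457 CPM (log2 difference -1.23, SE 0.12, edgeR adjusted p = 2.92e-05). AIFM2 (FSP1), which regenerates reduced coenzyme Q, had 12.7, 25.0 and 19.6 and 21.0, 22.0 and 15.8 CPM and overlapped, with a log2 difference of -0.03 whose sign was not stable between settings. GCH1, the source of tetrahydrobiopterin, was at 26.0, 15.0 and 17.8 against 31.3, 37.6 and 42.8 CPM (log2 difference -0.92, SE 0.23, edgeR adjusted p = 0.00711). The coenzyme Q kinase COQ8A was higher in KELLY, at 76.6, 147 and 117 against 33.0, 31.1 and 25.0 CPM (log2 difference 1.93, SE 0.24, edgeR adjusted p = 0.000148), and the phospholipid-remodelling acyltransferases divided, MBOAT1 toward SK-N-AS (-2.97) and MBOAT2 toward KELLY (0.84). PTS (0.79), PSTK (0.86), SC5D (0.87) and VKORC1L1 (0.67), of tetrahydrobiopterin, selenocysteine, sterol and vitamin K metabolism, were higher in KELLY, by calls that were lost without SK-N-AS replicate 2 for PSTK, without SK-N-AS replicate 1 for SC5D and without KELLY replicate 1 for VKORC1L1. DHODH and TXNRD1 were not called.

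Among lipid genes, ACSL4, which activates the polyunsaturated fatty acids that are peroxidized in ferroptosis, was lower in KELLY, at 59.5, 32.6 and 46.1 CPM against 91.5, 99.6 and 123 CPM in SK-N-AS (log2 difference -1.18, SE 0.23, edgeR adjusted p = 0.00181). LPCAT3, which places these acids in phospholipids, had 17.4, 15.1 and 15.3 and 13.3, 15.6 and 14.2 CPM and overlapped. The desaturases FADS1 (-0.67) and FADS2 (-1.01) were higher in SK-N-AS, and SCD, which makes monounsaturated acids, was higher in KELLY at 1050.3, 1095 and 1104 against 551, 557 and 563 CPM (log2 difference 0.96, SE 0.10, edgeR adjusted p = 5.96e-05). ELOVL2, which elongates long polyunsaturated acids, had 96.7, 63.3 and 75.7 CPM in KELLY and no read in SK-N-AS, or at least 694-fold higher. The oxidase NOX4 had 105 reads in KELLY against 1, a ratio of 106 (95% counting interval 18.6 to 4227), while FAR1 (-0.86, a call lost without replicate 3 of either line), of ether lipid synthesis, and SAT1 (-2.31), of polyamine breakdown, were higher in SK-N-AS. PTGS2, a marker gene of ferroptosis, had 1 read in KELLY against 693, a ratio of 686 (95% counting interval 123 to 27144), and the lipoxygenases ALOX5, ALOX15, ALOX15B, ALOX12B and ALOXE3 had at most 14 reads per line. Of 24 tested, 7 (29.2%) were higher in KELLY and 6 (25.0%) in SK-N-AS (8 and 8 without KELLY replicate 1). These shares are near the 28.2% and 27.8% of all genes, and the median log2 difference of the list was 0.17.

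Ferritin transcripts were lower and the iron exporter was higher in KELLY. FTH1, ferritin heavy chain, had 286, 414 and 407 CPM in KELLY against 892, 868 and 859 CPM in SK-N-AS (log2 difference -1.24, SE 0.16, edgeR adjusted p = 0.000164), and the light chain FTL differed by -0.73. SLC40A1, ferroportin, the exporter, had 13.4, 8.80 and 9.29 against 2.59, 2.21 and 3.58 CPM (log2 difference 1.91, SE 0.26, edgeR adjusted p = 0.000248). TFRC, the transferrin receptor, had 691, 453 and 517 and 342, 377 and 419 CPM (log2 difference 0.55, SE 0.17, edgeR adjusted p = 0.0226), higher in all KELLY libraries but under the fold limit. The importers SLC11A2 (0.93) and SLC39A14 (0.71) and the haem oxygenase HMOX1 (6.37, 15.3 and 11.1 against 4.49, 4.10 and 2.91 CPM, log2 difference 1.51, SE 0.33, edgeR adjusted p = 0.0036) were higher in KELLY. The ferrireductases STEAP1 (-5.48) and STEAP3 (-1.61) and the ferroxidase CP (-4.50) were higher in SK-N-AS. NCOA4, which delivers ferritin to autophagy, was not called (-0.18). In all, 4 (16.0%) of 25 tested were higher in KELLY and 8 (32.0%) in SK-N-AS (5 and 8 without KELLY replicate 1). All genes had shares of 28.2% and 27.8%, and the median log2 difference of the iron list was -0.03.

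**Figure D5:**
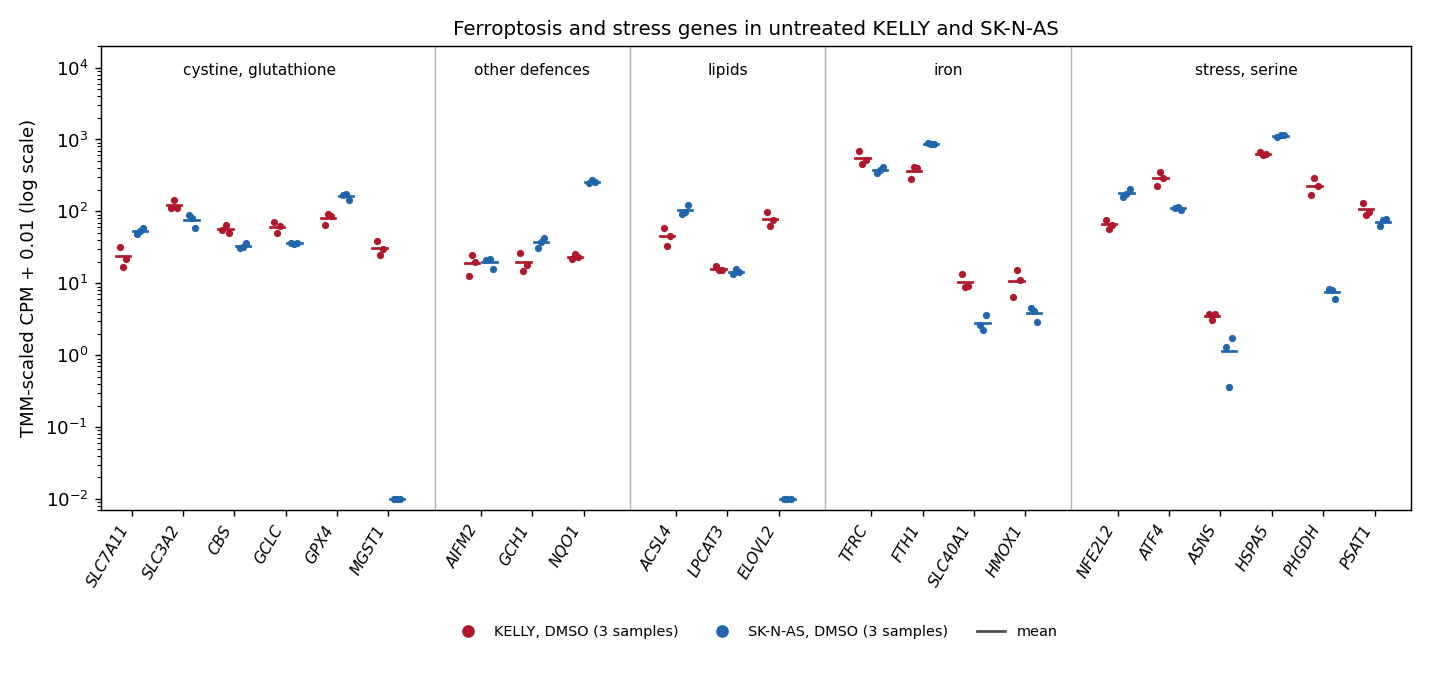
TMM-scaled CPM (log axis, with 0.01 added so that 0 can be drawn) of ferroptosis, iron and stress genes in the 3 untreated KELLY samples (red) and the 3 untreated SK-N-AS samples (blue), with bars at the means. SLC7A11, GPX4, NQO1, ACSL4 and FTH1 lie higher in SK-N-AS, MGST1, ELOVL2, SLC40A1, ATF4 and PHGDH lie higher in KELLY, and AIFM2 and LPCAT3 overlap.

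The antioxidant genes of the factor NRF2 were mostly higher in SK-N-AS. Of 34 tested, 6 were higher in KELLY and 18 in SK-N-AS (6 and 19 without KELLY replicate 1), with a median log2 difference of -0.84. NFE2L2, the gene of NRF2, had 76.9, 56.2 and 64.3 CPM in KELLY against 156, 177 and 207 CPM in SK-N-AS (log2 difference -1.45, SE 0.17, edgeR adjusted p = 9.16e-05), and KEAP1, its inhibitor, was not called (0.38). The exporter ABCC3 had 3 reads in KELLY against 3603, a ratio of 1189 (95% counting interval 407 to 5769.7), with its relative ABCC2 at a log2 difference of -4.43. CBR3, a carbonyl reductase, had no read in KELLY and 166 in SK-N-AS (or at least 18.0-fold higher), while the aldose reductase AKR1B1 was higher in KELLY (1.07). Of pentose phosphate genes, PGD (1.35) and TKT (0.79, a call lost without replicate 2 or 3 of either line) were higher in KELLY and TALDO1 (-1.03) was higher in SK-N-AS. TXNRD1, GCLM and SRXN1, 3 further NRF2 targets, were not called, and AKR1C1 (-1.90) and AKR1C2 (1.16) differed in opposite directions, as near-identical copies whose reads may be split.

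ATF4, the factor of the integrated stress response, had 226, 348 and 291 CPM in KELLY against 113, 115 and 105 CPM in SK-N-AS (log2 difference 1.38, SE 0.17, edgeR adjusted p = 0.000129). Of 44 tested genes of this response, 18 were higher in KELLY and 10 in SK-N-AS (21 and 10 without KELLY replicate 1), with a median log2 difference of 0.38. Among those higher in KELLY were the aminoacyl-tRNA synthetase genes AARS (0.98), EPRS (1.07), SARS (1.23) and GARS (1.24), whereas WARS (-1.71) and NARS (-0.62) were higher in SK-N-AS, the latter by a call lost without KELLY replicate 2 or 3 or SK-N-AS replicate 3. The lipoprotein receptor VLDLR was higher in KELLY (2.55) and the glutamine transporter SLC38A2 in SK-N-AS (-1.34). ASNS, asparagine synthetase, had 3.75, 3.09 and 3.77 against 1.28, 0.355 and 1.75 CPM (log2 difference 1.64, SE 0.45, edgeR adjusted p = 0.0117), a low level for a gene with near-identical copies. Several stress-induced genes did not follow ATF4. DDIT3 (CHOP) had 1.02, 2.93 and 3.46 and 3.29, 2.88 and 2.20 CPM and overlapped, and TRIB3 (-0.87), PPP1R15A (-1.70), ATF5 (-1.34) and the secreted STC2 (-3.71) were higher in SK-N-AS, as were the kinases EIF2AK4 (-1.64) and EIF2AK3 (-0.77).

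Of the enzymes of serine synthesis, the first differed most between the lines. PHGDH, its first enzyme, had 167, 288 and 223 CPM in KELLY against 8.37, 8.13 and 6.12 CPM in SK-N-AS (log2 difference 4.91, SE 0.25, edgeR adjusted p = 6.51e-07). PSAT1, the next enzyme, had 131, 90.4 and 98.5 and 62.8, 76.2 and 78.1 CPM (log2 difference 0.56, SE 0.18, edgeR adjusted p = 0.022), which was under the fold limit, and PSPH, the last, had a log2 difference of 1.11. The mitochondrial folate enzyme ALDH1L2 (42.8, 28.7 and 37.4 against 0.95, 0.710 and 0.895 CPM, log2 difference 5.40, SE 0.25, edgeR adjusted p = 3.52e-07) and the glycine decarboxylase GLDC (2.36) were higher in KELLY, and the cytosolic ALDH1L1 (-2.15) and DLD (-1.05) in SK-N-AS. Of 23 tested genes of serine, glycine and one-carbon metabolism, 9 were higher in KELLY and 2 in SK-N-AS (11 and 3 without KELLY replicate 1), with a median log2 difference of 0.50.

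Chaperones of the endoplasmic reticulum were mostly higher in SK-N-AS. Of 23 tested, 1 was higher in KELLY and 12 in SK-N-AS (1 and 12 without KELLY replicate 1), with a median log2 difference of -0.63. HSPA5 (BiP), the main chaperone, had 672, 606 and 630.1 CPM in KELLY against 1067, 1154 and 1153 CPM in SK-N-AS (log2 difference -0.82, SE 0.11, edgeR adjusted p = 0.000215), and P4HB, a disulfide isomerase and subunit of collagen prolyl hydroxylase, 267, 342 and 296 against 951, 899 and 765 CPM (log2 difference -1.53, SE 0.14, edgeR adjusted p = 2.37e-05). The transcription factors CREB3L1 (-3.03) and CREB3L2 (-1.67), which act in secretory cells, were higher in SK-N-AS. XBP1 and ATF6, factors of the unfolded protein response, and its target DNAJB9 were not called, and HERPUD1 was the member higher in KELLY (0.89).

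Cytosolic heat shock genes and cholesterol synthesis had members called in both directions, as had all genes (28.2% toward KELLY and 27.8% toward SK-N-AS). Of 16 tested heat shock genes, 3 (18.8%) were higher in KELLY and 4 (25.0%) in SK-N-AS (2 and 5 without KELLY replicate 1). Their median log2 difference was -0.20. The constitutive HSPA8 (2027 ± 15.9 and 2068 ± 126 CPM, SD, n = 3) and HSP90AB1 (2879 ± 72.3 and 2683 ± 74.8 CPM) were not called. The inducible HSPA1A had 0.899, 3.87 and 2.79 against 49.6, 43.3 and 33.8 CPM (log2 difference -4.07, SE 0.43, edgeR adjusted p = 5.23e-05), whereas its near-identical copy HSPA1B overlapped at 19.8, 35.2 and 26.4 and 34.9, 33.1 and 24.2 CPM, and reads may be split between them. Among co-chaperones and small heat shock proteins, CHORDC1 (1.37), DNAJA1 (0.65, a call lost without replicate 1 of either line) and HSPB8 (4.21) were higher in KELLY, and BAG3 (-1.34) and HSPB1 (-0.92) in SK-N-AS. Of 25 cholesterol genes, 8 were higher in KELLY and 5 in SK-N-AS (9 and 4 without KELLY replicate 1), with a median log2 difference of 0.06. The regulators SREBF2 (304, 456 and 382 against 165, 149.9 and 119 CPM, log2 difference 1.40, SE 0.19, edgeR adjusted p = 0.000215) and SREBF1 (1.10) were higher in KELLY, as were MVD (1.13) and the sterol carrier STARD4 (1.30). The enzymes MVK (-1.43), FDPS (-0.83), FDFT1 (-0.92) and MSMO1 (-0.62) were higher in SK-N-AS, MSMO1 with overlap and by a call lost without replicate 2 or 3 of either line, and FDPS by a call lost without KELLY replicate 1 or 3 or SK-N-AS replicate 1 or 2.

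The 10 genes with the largest differences toward KELLY were, after MYCN, mostly developmental and neuronal genes. DLK1, a paternally expressed Notch ligand, had 1665, 2797 and 2324 CPM in KELLY against 0.840, 0.513 and 0.671 CPM in SK-N-AS (log2 difference 11.70, SE 0.32, edgeR adjusted p = 5.05e-08). The oncofetal RNA-binding proteins IGF2BP1 and LIN28B, the latter a brake on let-7 miRNAs, had 569, 698 and 680.1 and 422, 253 and 296 CPM against 0.183, 0.237 and 0.224 and 0.0365, 0.0789 and 0.224 CPM. KIF1A (11.69), a motor of synaptic vesicle precursors, DPYSL5 (8.90), NSG2 (8.06), the calsyntenin CLSTN2, the sulfotransferase CHST15 and the kainate receptor GRIK3 completed the set, and GRIK3, at 152, 191 and 179.6 CPM, had no read in SK-N-AS.

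Toward SK-N-AS, the 10 genes were PTPRC, TYRP1, VIP and 7 genes of matrix, adhesion or signalling at the cell surface. Beside COL3A1, LUM and ANXA1, these were NID1, a basement membrane protein (0.0782, 0.855 and 0.559 against 516, 493 and 462 CPM, log2 difference -9.94, SE 0.46, edgeR adjusted p = 3.75e-07), KIRREL1, an adhesion protein (-10.91), the decoy receptor IL13RA2 (-10.39) and the collagen receptor subunit ITGA2 (0.704, 0.367 and 0.559 against 363, 367 and 385 CPM, log2 difference -9.40, SE 0.23, edgeR adjusted p = 4.99e-08). In none of these 20 genes did a library of one line overlap with the other, a property that the rule required.

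The Erastin libraries, which share no library with the DMSO comparison, were used to see which differences were also there. Of the 4819 genes higher in KELLY with DMSO, 4701 were tested with Erastin, 4691 had the same direction and 4074 were called again. Of the 4750 higher in SK-N-AS, 4642 were tested, 4633 had the same direction and 4047 were called again, and none was called the other way on either side. Of the 1984 and 1958 genes with at least 4-fold differences, 1893 and 1864 were tested, all in the same direction, and 1877 and 1840 were called again at a fold of at least 1.5. The Erastin doses differed between the lines. Among the genes named here from the ferroptosis lists, CBS, GCLC, CHAC1, FADS1, MBOAT2, PTS, PSTK, SC5D and VKORC1L1 lost their call with Erastin, and PSAT1 turned to SK-N-AS at a log2 difference of -0.67 (edgeR adjusted p = 0.00885).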

How the data were processed

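RNA of the KELLY and SK-N-AS cultures was sequenced as paired reads of 150 bases. The authors deposited raw counts per gene, 1 table per line, made on GRCh38 with Trimmomatic and HTSeq, with DESeq2 also named in the submitters' processing notes. The aligner and the use of strand in counting were not given in the sources used here, so that overlapping or antisense genes cannot be told apart, and genes with near-identical copies (HLA genes, HSPA1A and HSPA1B, AKR1C genes, NOTCH2, ASNS, NPM1, FTH1, PPAN) are uncertain. Both tables hold 58735 rows with the same gene names in the same order, and rows were joined on order and name (57167 distinct names). Groups came from the sample titles, and no column was left unmapped. The depth per sample was 24516853 to 28251514 counts, and intervals and floors cover counting error only.

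DMSO samples of the lines were compared with edgeR 4.0.16 (R 4.3.3) by the quasi-likelihood test, after filterByExpr and TMM scaling, with line as the term and p-values adjusted by Benjamini-Hochberg over 17089 genes. For a gene without reads in a line, the fold was taken against 3 counts per library (0.115 CPM in KELLY, 0.113 in SK-N-AS). With 1 to 3 reads in a line, it is a ratio with a 95% counting interval. RPKM used exon lengths of GENCODE 44, to which 36194 names were matched by symbol and 869 by an older one. Tested on simulated data with 17089 genes, the edgeR step called 64 of 100 genes changed 2-fold and 98 of 100 changed 4-fold, with 11 false calls. All other genes were simulated without a difference, whereas 56.0% of genes were called between the lines. The simulated rates therefore do not carry over to the comparison of the lines.

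The members and the 31 gene lists (788 genes, 787 in the tables) were chosen with earlier results of these data known. The genes named were a set of markers of each list, the 10 with the largest difference of log2(mean CPM + 1) in each direction among non-overlapping genes of at least 4-fold, and from each list the 3 largest differences in each direction at a mean of at least 1 CPM, the members against its majority and those at 0 in a line. Other members were named after their values were seen, as partners of these genes, as members not called or as markers of a cell type, and some genes are not reported here. Alternatives were RLE factors, library size alone, DESeq2 1.42.0, limma-voom (limma 3.58.1), other filters on low counts, protein-coding genes alone, a replicate block, a GC correction (loess, span 0.5), both together, a fit of all 12 samples, the Erastin samples, the fold limit inside the model and each sample left out. Motifs were searched in the RefSeq promoter table of GRCh38.p14 in Python 3.11.15.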

Additional observations from a re-analysis of the deposited data

How the results depend on the processing

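Over the alternatives, the number of genes higher in KELLY was 3363 to 5589 and the number higher in SK-N-AS 3349 to 5643, against 4819 and 4750, and stayed within 1.5 times in each. The lowest came with at least 10 counts in every sample, which tests fewer genes, and the highest with no filter on low counts. With 1 sample left out the counts were 4431 to 5099 and 4354 to 5107. Some list counts moved further without another sample than without KELLY replicate 1. Metabolic and growth targets higher in KELLY were 10 to 15, and ribosome biogenesis genes higher in SK-N-AS were 7 to 12. The replicate numbers were not taken to pair the samples, since the deviations of same-numbered samples from their line's mean had correlations of -0.37, 0.12 and -0.13 and KELLY 1 and 2 went best with SK-N-AS 3 and 1. With a replicate block 4404 and 4455 genes were called, and with the block and the GC correction 4768 and 4877.

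Of 4260 values of 228 named genes, 4136 kept their direction and side of the threshold, 105 lost the call, 9 gained it and 10 changed direction. AIFM2, not called at any of these, was at 0.038 with Erastin and between -0.27 and 0.20 with 1 sample left out, with positive values of 0.20 without KELLY replicate 1, 0.0056 without SK-N-AS replicate 1 and 0.05 without SK-N-AS replicate 2. With the Erastin samples, DDR2 was at -0.11, LPCAT3 at -0.21, MYCL at 0.0029, PPAN at 0.37, PSAT1 at -0.67 and TFRC at -0.014, and the cause was not tested. In all, 34 named genes lost their call somewhere, 16 with 1 sample left out, 6 of them without KELLY replicate 1, and 19 in the Erastin samples. Of the list medians, 514 moved by less than the spread between replicates and 55 by more. With at least 10 counts in every sample, which leaves out genes silent in 1 line, the medians of the YAP and TAZ targets, the antigen presentation list and the NRF2 list were -1.58, -1.97 and -0.48. Some medians near 0 changed sign, with ranges of -0.13 to 0.24 for ribosome biogenesis, -0.17 to 0.10 for ferroptosis suppressors and -0.06 to 0.20 for lipid genes. Genes with few reads in both lines, such as ASNS, CHAC1 and DDIT3, are limited by depth, and the GC trends of single libraries limit differences near the fold limit.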

Other observations

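Median differences between untreated KELLY and untreated SK-N-AS varied by chromosome, given here as values without a test. Among 11231 protein-coding genes with a mean of at least 100 counts, the median log2 difference was -0.03. It was 0.86 on chromosome 22, where 157 of 262 genes were higher in KELLY and 31 in SK-N-AS, 0.59 on chromosome 3 (320 and 98 of 649 genes) and -0.58 on chromosome 18 (21 and 83 of 168 genes). Beside these counts and those by window below, 28.2% of all 17089 genes tested were higher in KELLY and 27.8% in SK-N-AS. That set is wider, and the shares among the 11231 genes were not computed.

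In windows of 10 Mb with at least 20 such genes, 6 of 219 windows had a median of 1 or more and 10 a median of -1 or less. The highest median was 1.59, on chromosome 19 from 20 to 30 Mb, followed by 1.35 on chromosome 22 from 40 to 50 Mb. From 90 to 110 Mb of chromosome 11, both windows had a median of 1.13. The lowest was -1.65, on chromosome 7 from 100 to 110 Mb, where 2 of 72 genes were higher in KELLY and 62 in SK-N-AS, and -1.31 on chromosome 9 from 110 to 120 Mb, where 1 of 33 genes was higher in KELLY and 27 in SK-N-AS. Copy number was not measured in these libraries, and its part in these values was not tested.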
